A study of Mus musculus with 90 samples.

Results

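Stellate cell and matrix genes were examined in the livers of 90 female Diversity Outbred mice: 49 given zileuton, an inhibitor of 5-lipoxygenase, at 300 mg per kg by mouth, and 41 given sterile distilled water, each daily for 7 days. The 34 genes were taken as a fixed list of symbols, and all 34 were found among the 18223 genes of the deposited tables. The animals of both groups were 6 to 20 weeks old and of the J:DO stock, in which every mouse is a genetically distinct cross of several founder strains. Of the zileuton animals 34 had agouti, 6 black and 9 white coats, and of the vehicle animals 29 had agouti, 6 black and 6 white coats. Each animal gave 1 library of whole liver RNA, and the libraries held 12664579 to 41360187 estimated counts (38865109 at most in zileuton animals and 41360187 in vehicle animals).

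Hepatic stellate cells lie between the sinusoidal endothelium and the hepatocytes. In healthy liver they are quiescent, store vitamin A as retinyl esters and express factors such as Lhx2 and Hand2. After injury they can become contractile myofibroblasts that express Acta2 and lay down fibrillar collagens, which lysyl oxidases then cross-link. The list holds genes of both states: 5 chains of fibrillar collagens, 6 chains of other collagens, 4 genes of cross-linking and of protease inhibition, 5 proteoglycans and other matrix proteins, 5 contractile and filament genes, 3 receptors and 6 markers of quiescent stellate cells. Several are also made elsewhere in liver, for example Col4a1 and Sparc in endothelium, and Ecm1 in hepatocytes. Whole tissue was measured, so fewer cells of a type and less RNA per cell cannot be told apart.

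All values below are CPM, counts scaled to library size, unless a log2 difference is named. Timp1 was too low for the comparison, which left 33 genes. Zileuton animals had 3 of them higher (Col6a1, Col6a2 and Col1a1) and 6 lower (Ngfr, Pdgfrb, Dcn, Lhx2, Ecm1 and Col5a1) by the edgeR quasi-likelihood test at an adjusted p under 0.05. The other 24 did not pass. Over all 13248 genes tested, 29.3% were called, 14.4% higher and 14.8% lower, so the share of these genes that was called (27.3%) lay near that of the transcriptome. The median log2 fold change was −0.06 over the 33 genes and −0.01 over all genes.

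**Figure D1:**
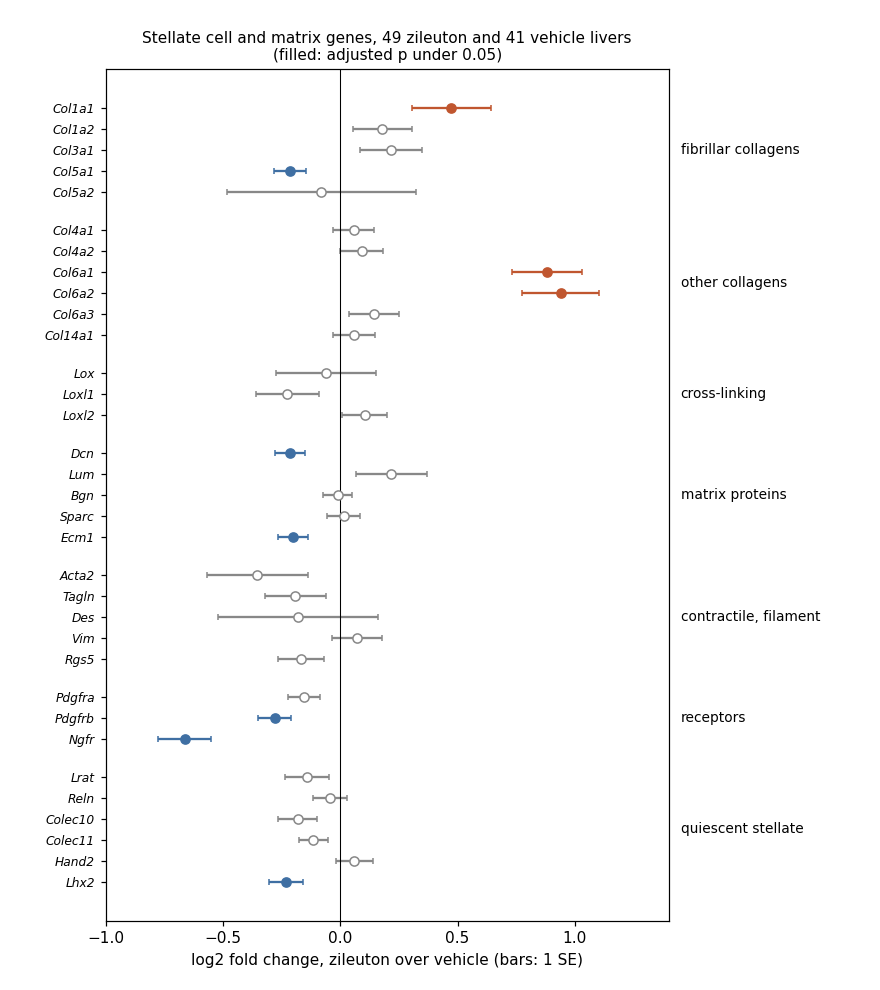
Log2 fold change of zileuton over vehicle for the 33 genes tested, ordered by role, with bars of 1 SE from the edgeR fit. Filled points passed an adjusted p of 0.05. Col6a1 and Col6a2 stand at 0.88 and 0.94, Ngfr at −0.66, and the other called genes lie between −0.28 and 0.47.

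The start regions of 6 genes are shown, so that genes of 1 molecule that were or were not called can be set side by side: the genes of collagen VI, of which Col6a1 and Col6a2 were higher and Col6a3 was not called, the collagen IV pair, which starts from a shared region, and Ngfr, the gene with the largest decrease. Each window runs from 250 bases before to 50 bases after a RefSeq start (GRCm38.p6). Capitals mark the GC box (GGGCGG), the letters of a TATA box (searched as TATAAA) and of a CCAAT box, each searched on both strands.
Col6a1 chr10:76725995-76726294 (minus strand): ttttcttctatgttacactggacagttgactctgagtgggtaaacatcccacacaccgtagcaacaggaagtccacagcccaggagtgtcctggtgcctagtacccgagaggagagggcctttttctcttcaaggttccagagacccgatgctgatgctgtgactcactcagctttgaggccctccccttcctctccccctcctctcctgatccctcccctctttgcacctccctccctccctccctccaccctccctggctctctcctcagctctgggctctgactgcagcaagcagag
Col6a2 chr10:76623581-76623880 (minus strand): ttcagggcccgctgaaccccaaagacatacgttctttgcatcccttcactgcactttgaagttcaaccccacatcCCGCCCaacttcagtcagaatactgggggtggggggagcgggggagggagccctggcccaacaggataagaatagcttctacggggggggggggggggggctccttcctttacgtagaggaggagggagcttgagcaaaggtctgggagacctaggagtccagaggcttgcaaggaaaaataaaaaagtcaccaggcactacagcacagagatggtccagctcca
Col6a3 chr1:90843922-90844221 (minus strand): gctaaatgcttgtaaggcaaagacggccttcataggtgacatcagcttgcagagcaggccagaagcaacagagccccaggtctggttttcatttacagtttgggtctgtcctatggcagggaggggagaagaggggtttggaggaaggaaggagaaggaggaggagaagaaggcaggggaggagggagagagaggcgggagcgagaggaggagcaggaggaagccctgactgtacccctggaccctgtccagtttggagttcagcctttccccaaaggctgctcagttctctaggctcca
Col4a1 chr8:11312777-11313076 (minus strand): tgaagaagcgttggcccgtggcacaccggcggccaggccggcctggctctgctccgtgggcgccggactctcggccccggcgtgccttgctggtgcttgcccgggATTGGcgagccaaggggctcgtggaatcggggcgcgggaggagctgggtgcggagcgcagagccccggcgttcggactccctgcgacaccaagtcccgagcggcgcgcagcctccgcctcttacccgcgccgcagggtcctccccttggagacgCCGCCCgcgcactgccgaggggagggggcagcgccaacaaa
Col4a2 chr8:11312555-11312854 (plus strand): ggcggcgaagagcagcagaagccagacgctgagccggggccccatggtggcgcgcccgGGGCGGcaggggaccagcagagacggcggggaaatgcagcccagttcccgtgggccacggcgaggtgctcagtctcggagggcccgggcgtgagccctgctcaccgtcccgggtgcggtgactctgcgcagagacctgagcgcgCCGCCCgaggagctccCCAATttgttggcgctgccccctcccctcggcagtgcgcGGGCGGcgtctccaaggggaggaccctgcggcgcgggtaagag
Ngfr chr11:95587649-95587948 (minus strand): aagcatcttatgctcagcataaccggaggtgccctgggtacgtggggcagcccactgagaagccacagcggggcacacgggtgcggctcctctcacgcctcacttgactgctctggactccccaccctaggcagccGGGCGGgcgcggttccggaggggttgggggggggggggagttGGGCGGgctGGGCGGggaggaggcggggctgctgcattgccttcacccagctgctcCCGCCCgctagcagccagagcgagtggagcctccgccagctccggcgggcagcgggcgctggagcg
Of the 34 genes, 23 had such a window, 25 windows in all, and Col6a2 had a second one that overlaps the printed one by 74 bases. GGGCGG occurred in 60.0% of these windows, against 35.7% of the 32851 mouse windows in the table. CCAAT occurred in 32% against 37.4%, and TATAAA in 12% against 13.6%. The Col6a1 and Col6a3 windows hold none of the 3 motifs, whereas the Col6a2 window shown holds 1 GGGCGG, the Ngfr window 4, the Col4a1 window 1 and the Col4a2 window 3. Both collagen IV windows also hold 1 CCAAT. The windows of Col4a1 and Col4a2 share 78 bases, because the genes lie head to head on chromosome 8 (11198423 to 11312826 and 11312805 to 11449287, mm10) with 22 overlapping bases. Col6a1 and Col6a2 lie on the same strand of chromosome 10 (76708792 to 76726168 and 76595762 to 76623630), 85161 bases apart, with 0 protein-coding genes between them. Col6a3 is on chromosome 1 (90765923 to 90843971).

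Collagen VI forms beaded microfibrils next to cells, and its Col6a1 and Col6a2 chains showed the largest increases. Col6a1 ran from 4.27 through a median of 9.49 to 48 CPM in zileuton animals, against 2.79, 5.67 and 13.8 in vehicle animals. Its mean was 11.5 ± 7.86 in zileuton animals and 6.26 ± 2.42 in vehicle animals (SD, n = 49 and 41), and 43 of 49 zileuton animals lay above the vehicle median. The groups overlapped in their lower part, and every value above 13.8 CPM was of a zileuton animal. The fold change was 1.84 (log2 0.88 ± 0.15 SE, edgeR adjusted p = 1.79e-06). Col6a2 ran from 3.34 through 7.56 to 48.9 CPM in zileuton animals and from 2.37 through 4.49 to 15.2 in vehicle animals, and 43 of 49 zileuton animals were above the vehicle median here too (1.92-fold, log2 0.94 ± 0.16, edgeR adjusted p = 3.86e-06). Col6a3, the third common chain, averaged 7.85 ± 2.61 CPM in zileuton animals and 7.11 ± 3.01 in vehicle animals with 37 of 49 zileuton animals above the vehicle median, and was not called (log2 0.14 ± 0.11, adjusted p = 0.321). The log2 ratio of Col6a1 to Col6a2 was 0.23 ± 0.24 in zileuton animals and 0.29 ± 0.25 in vehicle animals, whereas that of Col6a1 to Col6a3 was 0.40 ± 0.71 in zileuton animals and −0.18 ± 0.43 in vehicle animals (SD).

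Among fibrillar collagens, 1 of 5 rose and 1 fell, where 14.4% of all genes were higher and 14.8% lower. Col1a1 (chromosome 11, 94936224 to 94953042), the main chain of collagen I, ran from 4.12 through 8.93 to 40.1 CPM in zileuton animals and from 2.38 through 6.01 to 25.2 in vehicle animals. The groups overlapped over most of their range, with 38 of 49 zileuton animals above the vehicle median, and the means were 10.6 ± 6.83 and 7.63 ± 4.92. The log2 fold change was 0.47 ± 0.17 SE (1.39-fold, edgeR adjusted p = 0.0264). It fell out of the calls without zileuton animal 29 (0.39, adjusted p = 0.0577), the animal with the highest Col1a1, and with the run of animal numbers, described below, as a covariate (0.37, adjusted p = 0.108). Col1a2, its partner in the collagen I triple helix, was at 0.18 ± 0.13 (adjusted p = 0.292) with means of 14.9 ± 6.82 CPM in zileuton animals and 13.1 ± 5.82 in vehicle animals. Col3a1 was at 0.22 ± 0.13 (adjusted p = 0.216), with 34.7 ± 16.5 and 29.9 ± 16.2 CPM, and passed when vehicle animal 35 was left out (0.31, adjusted p = 0.0423). Col5a1 (chromosome 2, 27886425 to 28039514), a chain of collagen V, which sets the width of collagen fibrils, went the other way. It ran from 5.29 through 8.93 to 15.4 CPM in zileuton animals and from 6.10 through 10.3 to 16.7 in vehicle animals, with 36 of 49 zileuton animals below the vehicle median (log2 −0.21 ± 0.07 SE, adjusted p = 0.0137).

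**Figure D2:**
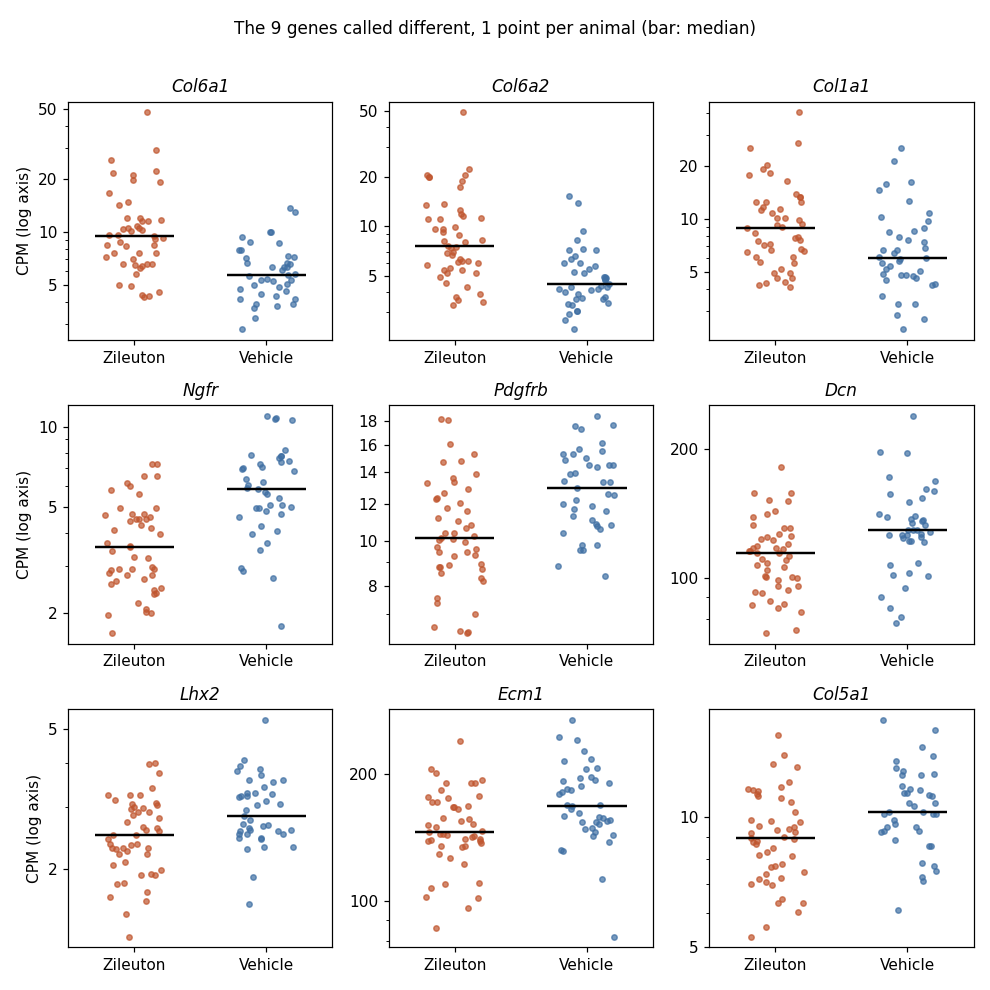
CPM on log axes in each of 49 zileuton and 41 vehicle animals for the 9 genes called different, with a bar at each group's median. For every gene the groups overlap; the highest Col6a1 and Col6a2 values (48 and 48.9 CPM) and the lowest Ngfr value (1.68 CPM) are of zileuton animals.

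The network collagens Col4a1 and Col4a2 of basement membranes and Col14a1, which coats fibrils, were not called. Col4a1 averaged 29.6 ± 8.26 CPM in zileuton animals and 28.5 ± 8.6 in vehicle animals, and its log2 fold change was 0.06 with a 95% interval from −0.11 to 0.23. Col4a2 was at 0.09 (−0.09 to 0.27) and Col14a1 at 0.06 (−0.12 to 0.23), so changes beyond about 0.27 in these genes lie outside the intervals.

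Of cross-linking enzymes none of the 3 tested passed by edgeR, with 0 also at an unadjusted p under 0.05, against 39.2% of all genes. Lox, Loxl1 and Loxl2, the lysyl oxidases that join collagen and elastin chains, were at log2 −0.06 ± 0.21, −0.23 ± 0.13 and 0.10 ± 0.10 (SE). Lox was the lowest tested member, at 0.412 ± 0.316 CPM in zileuton and 0.426 ± 0.292 in vehicle animals. Timp1, an inhibitor of matrix metalloproteases that is raised in fibrotic liver, was scarcely detected. It had 227 counts in all over the zileuton animals and 143 over the vehicle animals, at most 18 in 1 library and 0 in 8 libraries. A count of 0 allows up to 3 counts, or 0.0683 CPM in the deepest and 0.260 CPM in the shallowest library. In a fit with no filter on low counts, Timp1 was at log2 0.39 and was not called (edgeR adjusted p = 0.271).

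Among proteoglycans and matrix proteins, 2 of 5 fell and 0 rose, against 14.8% of all genes lower and 14.4% higher. Decorin, Dcn (chromosome 10, 97479609 to 97518143), a proteoglycan that binds collagen fibrils, ran from 74.3 through 114 to 182 CPM in zileuton animals and from 78.4 through 129 to 239 in vehicle animals. The groups overlapped widely, and 38 of 49 zileuton animals were below the vehicle median (log2 −0.21 ± 0.07 SE, edgeR adjusted p = 0.00804). Ecm1 (chromosome 3, 95734147 to 95739569), a secreted protein that holds TGF-beta in its latent form, ran from 85.9 through 145 to 239 CPM in zileuton animals and from 82.1 through 167 to 269 in vehicle animals (−0.20 ± 0.06, adjusted p = 0.0109). Biglycan, Bgn, and the collagen-binding Sparc were at −0.01 and 0.01, with 95% intervals of −0.13 to 0.11 and −0.12 to 0.15. Lumican, Lum, next to Dcn on chromosome 10 and on the same strand, was at 0.22 ± 0.15 (adjusted p = 0.289) and so stood on the other side of 0 from its neighbour without passing.

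Of 3 receptors, 2 fell and 0 rose, against 14.8% of all genes lower and 14.4% higher. A list of 3 genes is too short to set a share beside these. Ngfr (chromosome 11, 95568818 to 95587735), the low-affinity neurotrophin receptor that marks stellate cells in liver, ran from 1.68 through 3.53 to 7.28 CPM in zileuton animals, against 1.78, 5.84 and 11 in vehicle animals. Means were 3.82 ± 1.47 and 6.06 ± 2.23, and 43 of 49 zileuton animals lay below the vehicle median (log2 −0.66 ± 0.11 SE, a level 1.58-fold lower, edgeR adjusted p = 2.41e-06). Pdgfrb (chromosome 18, 61045150 to 61085061), the PDGF receptor through which stellate cells are driven to divide, ran from 6.37 through 10.1 to 18.2 CPM in zileuton animals and from 8.41 through 13 to 18.5 in vehicle animals (−0.28 ± 0.07, adjusted p = 0.00133). Of zileuton animals, 39 of 49 were below the vehicle median for Pdgfrb. Pdgfra, the other PDGF receptor, did not pass (−0.15 ± 0.07, adjusted p = 0.0814).

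Of 6 markers of quiescent stellate cells, 1 fell and 0 rose (16.7% called), where 29.3% of all genes were called. The factor Lhx2 (chromosome 2, 38339281 to 38369733), whose loss in mice leads to liver fibrosis, ran from 1.29 through 2.50 to 4.02 CPM in zileuton animals and from 1.59 through 2.84 to 5.32 in vehicle animals. The ranges overlapped almost fully, and 32 of 49 zileuton animals were below the vehicle median (log2 −0.23 ± 0.07 SE, adjusted p = 0.0101). Lrat, which makes the retinyl esters that stellate cells store, averaged 16.8 ± 5.14 CPM in zileuton animals and 18.6 ± 6.05 in vehicle animals (−0.14 ± 0.09, adjusted p = 0.267). Reelin, Reln, stood at −0.04 ± 0.07, and the collectins Colec10 and Colec11, secreted lectins, stood at −0.18 ± 0.08 and −0.11 ± 0.06 (adjusted p = 0.0916 and 0.162). Colec10 passed when zileuton animal 19 was left out (adjusted p = 0.0432). Hand2 was at 0.06 ± 0.08, and 19.6% of its exon bases are shared with the antisense gene Hand2os1, whose reads cannot be told apart where the counting strand is not given.

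Of the 5 contractile and filament genes, 0 passed over all 90 animals by edgeR, while DESeq2 called 1 of them, Des. By edgeR, 0 of the 5 had an unadjusted p under 0.05, against 39.2% of all genes. Acta2, the smooth muscle actin of myofibroblasts, ran from 0.677 through 3.28 to 12.1 CPM in zileuton animals and from 0.701 through 3.12 to 24 in vehicle animals. The group medians were nearly equal and the highest values were of vehicle animals 11 and 10 (24 and 22.3 CPM). Its log2 fold change was −0.35 with a 95% interval of −0.78 to 0.07. Tagln, an actin-binding protein of smooth muscle, was at −0.19 ± 0.13, and 62.4% of its exon bases overlap an antisense gene, Gm48529. Vimentin, Vim, was at 0.07 ± 0.10 and Rgs5, a pericyte regulator of G protein signals, at −0.17 ± 0.10 (SE).

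Des, the desmin filament gene of muscle and of rodent stellate cells, rested on 2 libraries. Vehicle animal 8 and zileuton animal 24 had 1469 and 985 CPM of Acta1, the skeletal muscle actin, against at most 0.203 in the other 88 animals, and all 12 skeletal muscle genes looked for exceeded 1 CPM in these libraries. Summed, those genes ran from 0.0507 through 0.597 to 2535 CPM in zileuton and from 0.183 through 0.583 to 4528 in vehicle animals, 8 of the 12 were at a median of 0, and 0 of the 1 tested was called. Des was at 214 CPM in zileuton animal 24 and at 180 CPM in vehicle animal 8. In the other animals it ran from 2.39 to 5.59 CPM over zileuton animals and from 3.00 to 12.9 over vehicle animals. With all animals its log2 fold change was −0.18 ± 0.34 SE (edgeR adjusted p = 0.738). Leaving out zileuton animal 24 alone gave −1.23, and leaving out vehicle animal 8 alone gave 0.69, so the direction turned with 1 library. Without both, Des averaged 4.0 ± 0.778 CPM in 48 zileuton animals and 5.14 ± 1.6 CPM in 40 vehicle animals and was called lower (−0.36 ± 0.07 SE, 1.28-fold lower, adjusted p = 5.54e-05). In that comparison 3 members were higher and 7 lower, where 29% of all genes were called (14.5% higher and 14.5% lower). The 9 genes called with all animals were called again in the same direction, with Col6a1 at 0.88, Col6a2 at 0.93, Col1a1 at 0.47 and Ngfr at −0.67.

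**Figure D3:**
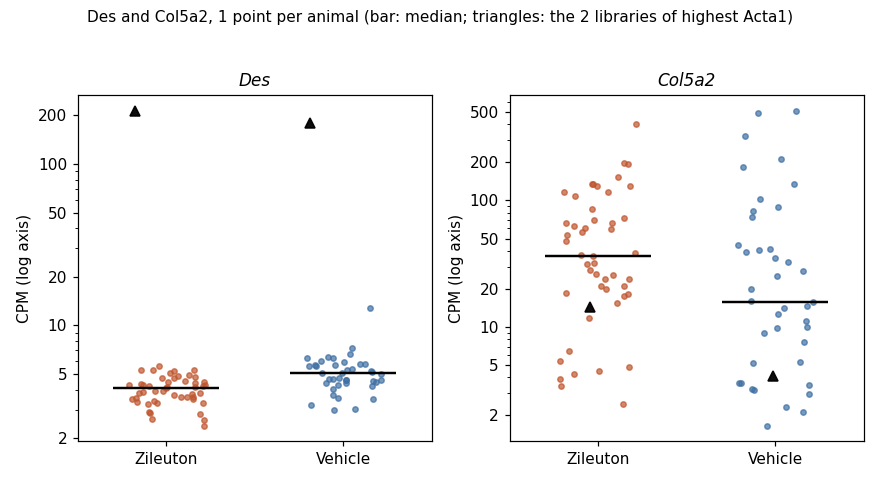
CPM on log axes of Des (left) and Col5a2 (right) in each animal, with a bar at each group's median and triangles for the libraries of highest Acta1. Those libraries stand at 214 CPM (zileuton) and 180 CPM (vehicle) of Des, above all others, and lie inside the range of Col5a2, which spans 2.46 to 401 CPM in zileuton and 1.66 to 512 CPM in vehicle animals.

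Col5a2 (chromosome 1, 45374321 to 45503282), another chain of collagen V, had the widest spread of the members, with an SD of log2 CPM of 1.75 in zileuton and 2.25 in vehicle animals. It ran from 2.46 through a median of 36.3 to 401 CPM in zileuton animals and from 1.66 through 15.7 to 512 CPM in vehicle animals. Of 49 zileuton animals, 6 were below 5 CPM and 11 above 100 CPM, and of 41 vehicle animals, 10 and 7. The highest values were in vehicle animals 22 and 11 (512 and 491 CPM) and zileuton animal 36 (401 CPM). The direction of the group difference depended on how animals were averaged. The means were 61.6 ± 71.1 in zileuton animals and 65.2 ± 120 in vehicle animals (log2 fold change −0.08 ± 0.40 SE, edgeR adjusted p = 0.905), whereas the ratio of medians was 2.31. In limma with quality weights, which averages logs, the difference was 0.84 (adjusted p = 0.126). Col5a2 tracked neither its partner chain Col5a1 (r = −0.11) nor its neighbour Col3a1 (r = −0.13), and its median correlation with the other members was −0.01.

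Levels per length of exon put the members in a wide order. The length was that of all annotated exons of a gene merged, for example 6.56 kb for Col1a1 and 12.43 kb for Col1a2. It can exceed the length of a single transcript, so the order depends on it. By median CPM per kb, Ecm1 was the highest, at 57.7 in zileuton and 66.3 in vehicle animals, followed by Sparc (20.0 and 20.8) and Dcn (19.6 and 22.1), whose order differs between the groups, and by Colec11 (16.6 and 18.5) and Bgn (14.6 and 15.3). Fibrillar collagens stood below these, with Col5a2 at 3.79 in zileuton and 1.64 in vehicle animals, Col3a1 at 3.09 and 2.59, Col1a1 at 1.36 and 0.915 and Col1a2 at 1.06 and 0.924 CPM per kb. Acta2 stood at 1.49 and 1.42, Col6a1 at 2.17 and 1.30, and Lox, the lowest tested, at 0.0723 and 0.0771 CPM per kb.

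The members varied together across animals. After the group means were removed, the median Pearson correlation of log2 CPM over the 528 pairs of tested members was 0.27 (90 animals), against −0.004 over all pairs of tested genes; all genes of an animal share its library and depth. Chains of 1 collagen molecule had the highest values: 0.94 for Col6a1 with Col6a2, 0.92 for Col4a1 with Col4a2 and 0.90 for Col1a1 with Col1a2. Col1a1 and Col3a1 correlated at 0.86 and Acta2 and Tagln at 0.81. Vim followed Col3a1 at 0.80. Col6a1 was less close to Col6a3, the third chain, at 0.50, with 0.43 within zileuton animals and 0.66 within vehicle animals.

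Fibrillar collagens and quiescent markers were less close to each other than to their own kind. Fibrillar collagens had a median correlation of 0.59 among themselves. Fibrillar collagens correlated with cross-linking enzymes at a median of 0.57 and with the quiescent markers at 0.17. Quiescent markers had a median of 0.37 among themselves, with 0.63 between Reln and Colec10 and 0.61 between Reln and Lhx2, and 0.07 with contractile genes. Col14a1 had its highest correlation with Reln (0.61), and Pdgfrb with Col5a1 (0.77). Ngfr was closest to Pdgfrb (0.52), and its correlation with Col6a1 was −0.41 within zileuton animals and 0.03 within vehicle animals. Rgs5 stood outside these groups, with a median correlation of 0.10 and a highest one of 0.23, with Ngfr. The median correlation of Des was 0.18 with all animals and 0.35 without the muscle libraries.

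**Figure D4:**
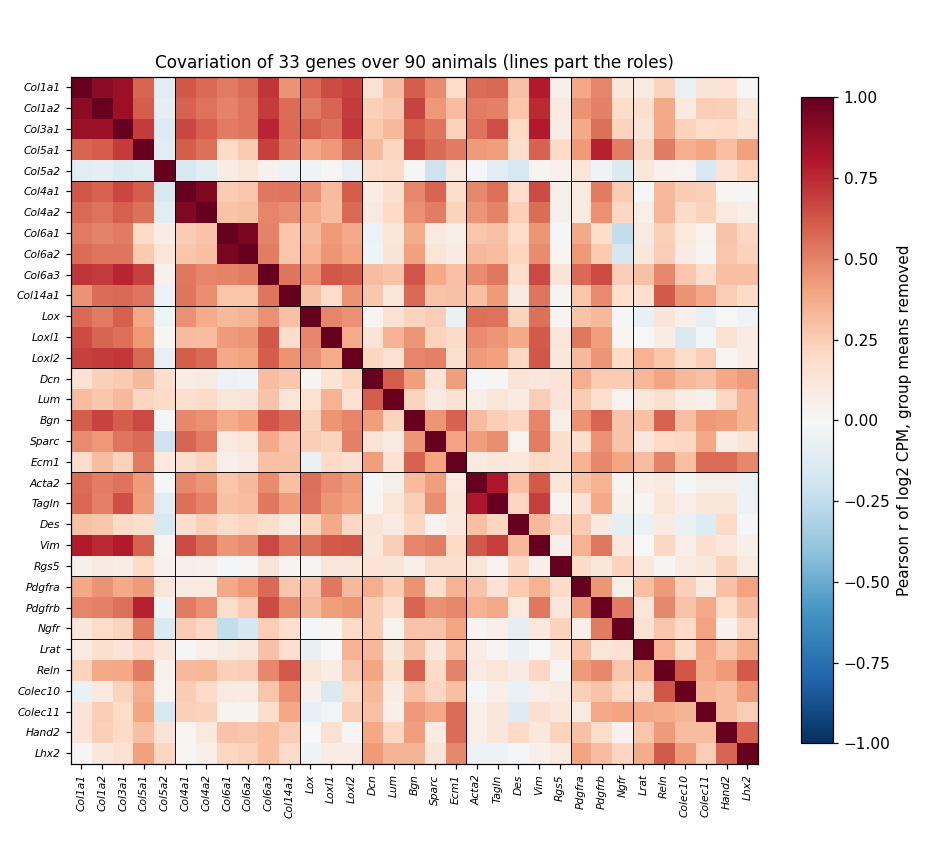
Pearson correlation of log2 CPM between the 33 tested genes over 90 animals after removal of group means, in the order of their roles, with lines between roles. Dark red blocks mark Col1a1, Col1a2 and Col3a1 (0.85 to 0.90), Col4a1 with Col4a2 (0.92) and Col6a1 with Col6a2 (0.94); values of Col5a2 are near 0.

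Most members varied more between animals than the typical gene. The SD of log2 CPM had a median over all 34 members, Lox and Timp1 included, of 0.46 in zileuton animals and 0.49 in vehicle animals. It was 0.27 and 0.27 over all genes of sufficient level, a set without Lox and Timp1. Of the 32 members in that set, 32 in zileuton and 31 in vehicle animals had an SD above the all-gene median. A difference in spread between groups was called for 0 of 32 members by limma on absolute deviations, with 0.0337% of 11857 genes called. At an unadjusted p under 0.05 there were 4, Col6a1, Col6a2, Reln and Colec11, each wider in zileuton animals, and 8.76% of all genes were at that threshold. For Col6a2 the SD of log2 CPM was 0.83 in zileuton animals and 0.57 in vehicle animals.

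Animal numbers fall in 8 runs of 50 consecutive numbers, each with 2 to 12 zileuton and 3 to 6 vehicle animals, and what a run stands for is not in the labels. Within runs, the means of log2 CPM of 5 of the 9 called genes differed in the same direction in all 8: Col6a1 and Col6a2 higher, and Ngfr, Dcn and Lhx2 lower. The 9 genes were called from the same animals, so this count is a description and not a separate test. In run 5, which has 2 zileuton animals, the differences in Col6a1 and Col6a2 were near 0, and the mean CPM was 5.77 in zileuton and 5.81 in vehicle animals for Col6a1 and 4.41 and 4.44 for Col6a2. The difference in Col6a1 ran from 0.003 to 2.02 in log2 CPM between runs, with a median of 0.66, and that in Ngfr from −1.39 to −0.05, with a median of −0.60. Col1a1 was higher in 6 of 8 runs, and Col5a1, Pdgfrb and Ecm1 were lower in 7 of 8.

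The largest differences of Col6a1 and Ngfr were in run 6. There Col6a1 was at 19.4, 29.2, 25.8 and 21.7 CPM in the 4 zileuton animals and at 4.74, 8.68, 3.88, 5.67 and 7.24 CPM in the 5 vehicle animals, and Ngfr was at 1.97, 2.58, 2.91 and 2.37 CPM in the zileuton animals and at 4.70, 10.8, 3.66, 5.72 and 10.7 CPM in the vehicle animals. For both genes the groups did not overlap in this run, which was picked for its large differences. How many other genes part fully between these 4 and 5 animals was not counted. Differences of the zileuton effect between runs, a test added after the data were seen, were called for 0 of 33 members by edgeR (0.189% of all genes). The adjusted p was 0.203 for Col6a1, and 5 members had an unadjusted p under 0.05, as had 11.2% of all genes. Without run 6, Col6a1 and Ngfr remained called and Col1a1 did not (0.46, adjusted p = 0.0528).

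**Figure D5:**
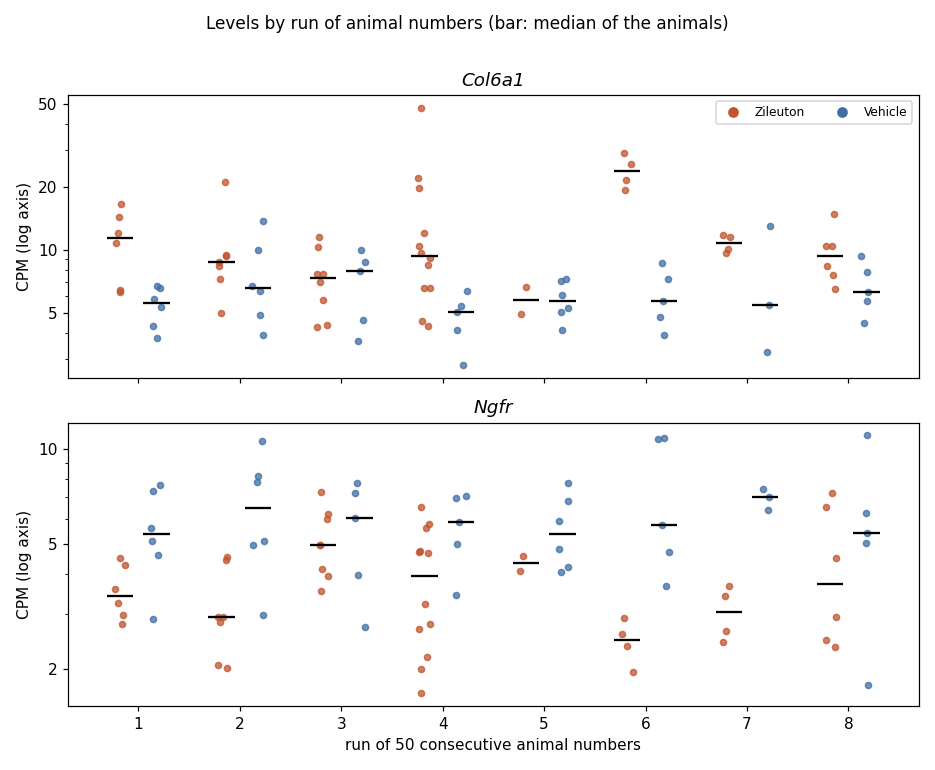
CPM on log axes of Col6a1 (top) and Ngfr (bottom) in each animal by run of 50 animal numbers, zileuton left and vehicle right, with a bar at each median. In run 6, picked for its large difference, the 4 zileuton animals lie at 19.4 to 29.2 CPM of Col6a1. Its 5 vehicle animals lie below, at 3.88 to 8.68 CPM.

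Levels between runs differed for 1 of 33 members, Des (edgeR adjusted p = 0.00108), where 1.02% of all genes were called. Without the muscle libraries Des did not pass (adjusted p = 0.979) and 0 members were called. Coat colour was linked to 0 of 33 members. In black against agouti animals 0.0453% of all genes were called; 9 members, among them Col6a1 and Col1a1, and 6.53% of all genes had an unadjusted p under 0.05. In white against agouti animals 0.00755% were called, and 2 members and 7% of all genes were at that threshold. Col6a1 averaged 15.1 ± 6.75 CPM in 6 black zileuton animals and 8.70 ± 3.93 in 6 black vehicle animals, against 11.4 ± 8.61 in 34 agouti zileuton animals and 5.98 ± 1.87 in 29 agouti vehicle animals (SD). The zileuton effect differed by coat for 0 members between black and agouti (0.00755% of all genes called). There 4 members and 6.27% of all genes had an unadjusted p under 0.05. Between white and agouti it differed for 1, Des (0.0302% called), with 2 members and 3.78% of all genes at that threshold. Without the muscle libraries the difference in Des was 0.05 ± 0.19 (SE) on the log2 scale and did not pass.

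Where in its run an animal number fell followed the groups, with positions from 25 to 50 in zileuton and from 13 to 20 in vehicle animals, so position and treatment cannot be told apart by it. Within the 49 zileuton animals, position was linked to 0 of 32 members by edgeR (0% of all genes called), and 1, Des, and 12.8% of all genes had an unadjusted p under 0.05. With position as a covariate in the comparison of the groups, 1.64% of all genes were called and of the members Des alone, at 2.54 (adjusted p = 0.0324). That fit held both muscle libraries, and the test within zileuton animals held zileuton animal 24. Des was not fitted with position without these libraries. In the fit with position as a covariate, Col6a1 was at 0.47 (adjusted p = 0.486), Col6a2 at 0.58 (0.422), Col1a1 at 0.59 (0.435) and Ngfr at −0.72 (0.111).

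Clock genes moved with the groups. All 11 genes of one circadian phase were higher in zileuton animals, among them Ciart (6.28 ± 5.78 CPM in zileuton and 0.907 ± 2.06 in vehicle animals) and Dbp (75.3 ± 46.1 and 15.8 ± 33.4), and all 5 of the opposite phase were lower, among them Npas2 (1.95 ± 3.46 and 9.90 ± 5.32) and Arntl (6.82 ± 5.74 and 22.6 ± 8.13). With a score of these genes as a covariate, 2.9% of all genes were called. Of the members Col6a1 (0.81, adjusted p = 0.0183), Col6a2 (0.91, 0.0173) and Col1a1 (0.78, 0.0359) were higher, and 0 were lower. Ngfr was at −0.31 (adjusted p = 0.322), Pdgfrb at −0.15 (0.476), Col5a1 at −0.01 (0.966), Dcn at −0.19 (0.311), Lhx2 at −0.28 (0.138) and Ecm1 at −0.27 (0.0950). Across animals of 1 group the score correlated with Ngfr at −0.14 in zileuton and −0.50 in vehicle animals. The same values were −0.006 and −0.38 for Pdgfrb, −0.13 and −0.46 for Col5a1 and 0.11 and −0.17 for Dcn. For Lhx2 they were 0.22 and −0.08, and for Ecm1 0.36 and −0.20. Of the higher genes, Col6a1 had 0.10 and 0.08, Col6a2 0.07 and 0.05 and Col1a1 −0.28 and −0.09. A code in each sample's description holds a letter and a number, which were taken here as plate row and column. With both as covariates, where 24.4% of all genes were called, Pdgfrb, Ecm1 and Col5a1 no longer passed (adjusted p = 0.0560, 0.0689 and 0.131).

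Genes of the surrounding pathway moved in either direction. Of 22 TGF-beta and PDGF signalling genes 4 rose, 5 fell and 13 did not pass. The receptor Tgfbr2 averaged 24 ± 8.93 CPM in zileuton animals and 18.9 ± 5.02 in vehicle animals (log2 0.34 ± 0.10 SE, edgeR adjusted p = 0.00362). The ligand Pdgfc fell to 3.89 ± 1.74 CPM in zileuton animals, against 6.36 ± 2.25 in vehicle animals (−0.71 ± 0.12, adjusted p = 3.33e-06), and Skil, a repressor of SMAD signalling, was at −0.55 ± 0.12. The share called, 40.9%, compares with 29.3% of all genes.

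Of 18 genes of collagen assembly and secretion 3 rose, 2 fell and 13 did not pass. The share called, 27.8%, lay near the 29.3% of all genes. Mia3, which loads collagen into transport carriers, rose to 224 ± 30.6 CPM in zileuton animals, against 178 ± 26.5 in vehicle animals, and was above the vehicle median in 48 of 49 (log2 0.33 ± 0.04 SE, adjusted p = 1.29e-09). Crtap, of the prolyl 3-hydroxylase complex, was at 0.32 ± 0.06 and its partner P3h1 at −0.20 ± 0.05. Bmp1, which cuts procollagen at its C-terminal end, was at −0.28 ± 0.05. Of 13 tested genes of matrix breakdown and its inhibition 2 rose and 3 fell (38.5% called, against 29.3% of all genes). Those that rose were Timp3, an inhibitor of matrix metalloproteases, at 0.30 ± 0.08 and the metalloprotease Mmp15 at 0.18 ± 0.06. Among those that fell were Adamts1 at −0.30 ± 0.08 and Mmp14 at −0.26 ± 0.07.

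Of 31 other matrix genes tested 3 rose, 4 fell and 24 did not pass (22.6% called, against 29.3% of all genes). Periostin, Postn, a matrix protein of remodelling tissue, ran from 3.5 through 14.5 to 207 CPM in zileuton animals and from 2.99 through 7.36 to 21.2 in vehicle animals (3.21-fold, log2 1.68 ± 0.25 SE, adjusted p = 6.49e-08). The fibril-associated Col12a1 was at 0.90 ± 0.19, while Col27a1 and the basement membrane collagen Col15a1 were at −0.48 ± 0.14 and −0.44 ± 0.17. Of 17 tested genes of retinoid storage and use 4 rose, 1 fell and 12 did not pass, and the share called, 29.4%, lay near that of all genes. Aldh1a1, which makes retinoic acid from retinal, averaged 2092 ± 639 CPM in zileuton animals and 1279 ± 547 in vehicle animals (0.71 ± 0.11), Rdh16 was at 0.58 ± 0.12, and Stra6l, a relative of the retinol transporter Stra6, was at −0.36 ± 0.06.

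Markers of other liver cells were set beside these results. Over all genes tested, 29.3% were called, 14.4% higher and 14.8% lower. Of Kupffer cell genes 0 of 9 were called and of portal fibroblast and mesothelial genes 0 of 9 tested. Among the latter the log2 fold change was below 0 for 8 and above 0 for 1, with a median of −0.28. The most abundant Kupffer cell gene, Cd5l, was at 0.02 ± 0.18, and that of the portal fibroblast and mesothelial list, Upk3b, at −0.33 ± 0.29 on the log2 scale. Summed levels ran from 77.4 through 190 to 506 CPM in zileuton animals and from 41.3 through 215 to 759 in vehicle animals for Kupffer cell genes, and from 3.39 through 12.1 to 43.1 and from 5.08 through 13.2 to 68.7 for portal fibroblast and mesothelial genes. Of smooth muscle genes 0 of 4 tested were called, with sums from 48.2 through 75 to 99.9 CPM in zileuton and 51.4 through 74.6 to 94.4 in vehicle animals, and Mylk, the most abundant, at 0.04 ± 0.05. Sinusoidal endothelium had 1 of 12 lower (Clec4g at −0.18 ± 0.06), with sums from 186 through 318 to 447 CPM in zileuton and from 216 through 342 to 432 in vehicle animals.

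Cholangiocyte genes had 1 of 5 tested lower (Sox9, log2 −0.86 ± 0.14 SE), with sums from 16.1 through 33.5 to 77.5 CPM in zileuton and from 17.6 through 39.3 to 64.8 in vehicle animals. For this list and the next, 14.8% of all genes tested were lower. Hepatocyte genes had 6 of 8 lower, among them Ahsg at −0.31 ± 0.07 and Apoa1 at −0.30 ± 0.09, with sums from 83374 through 125323 to 188195 CPM in zileuton and from 103776 through 143077 to 201491 in vehicle animals. The 1 adipocyte gene tested, Cidec, was higher at 1.13 ± 0.19. Sums of the 6 genes ran from 0.759 through 1.73 to 30.3 CPM in zileuton and from 0.387 through 0.730 to 16.7 in vehicle animals. Cidec alone had medians of 1.49 CPM in zileuton and 0.681 CPM in vehicle animals. Of the 6 genes, 4 (Plin1, Lep, Cfd and Retn) were at a median of 0. The part of these cell types in the levels of the stellate cell and matrix genes was not tested.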

How the data were processed

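Per the labels' protocols, total RNA came from 25 mg pieces of liver, RNA of an integrity number below 8 was left out, and TruSeq libraries were read on an Illumina HiSeq. The authors deposited an expected count (estimated count) per gene and animal, of which 77.1% of values are whole, and a second table of signal per gene, in which the counts of each animal are divided by 1 size factor. Partek, STAR, DESeq2 and the build mm10 are named in the submitters' processing notes; the sources used here give neither the annotation nor the counting strand.

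Counts were rounded and fitted over all 90 libraries with edgeR 4.0.16 (R 4.3.3; TMM, filterByExpr, robust quasi-likelihood F test, two-sided). Adjusted p-values are Benjamini-Hochberg over all genes tested, and adjusted p-values with no tool named come from this fit. Spread was tested with limma 3.58.1 on absolute deviations of log2 CPM (prior count 2) from group medians, for genes with a mean of at least 0. Alternatives used RLE scaling, no filter, DESeq2 1.42.0, limma-voom, the authors' signal with pseudocounts of 1 and 0.1, covariates, and fewer libraries. The scripts were tested on simulated data. Positions are from GENCODE M21 (mm10), and start regions from RefSeq GRCm38.p6.

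Animals were grouped by the exposure label. The labels give each sample its own animal ID, and p-values measure the spread between animals. The members, lists and tests were chosen with earlier results of these data known. In each list of other genes, the 2 called genes with the largest change in each direction and a mean of at least 1 CPM are named, or the most abundant gene where none was called, except that some genes are not reported here; beyond this rule, animals and correlated pairs were picked after their values were seen. Total counts set the precision of low genes, and floors of 3 counts cover counting error alone.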

Additional observations from a re-analysis of the deposited data

Results flagged for a closer look

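The zileuton effect on Des differed between coat colours, by 4.07 ± 0.87 (SE) on the log2 scale between white and agouti animals (edgeR interaction, adjusted p = 0.0477). Des averaged 27.1 ± 70.1 CPM in 9 white zileuton animals and 4.4 ± 0.813 CPM in 6 white vehicle animals, against 4.04 ± 0.796 CPM in 34 agouti zileuton animals and 11 ± 32.5 CPM in 29 agouti vehicle animals. The 2 libraries with skeletal muscle transcripts were of a white zileuton animal and an agouti vehicle animal. Without them the difference was 0.05 ± 0.19 (adjusted p = 1.00).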

How the results depend on the processing

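With the position in the run as a covariate, 1 member was higher and 0 lower, against 3 and 6 without it; with the clock score there were 3 and 0, and with plate row and column 3 and 3. The cause was not tested, and 1.64%, 2.9% and 24.4% of all genes were called in these fits. Under RLE scaling, no filter, limma-voom and the authors' normalized values with either pseudocount the counts were 3 and 6. Of all genes, 29.3%, 22.8%, 31.2%, 28.8% and 28.7% were called in these fits, in that order. DESeq2 (30.4% of all genes called), coat colour (29.9%) and the comparison without the muscle libraries (29%) gave 3 and 7. Leaving out the 9 libraries of lowest total gave 3 and 8 (31%), and run as a covariate 2 and 8 (30.5%). Leaving out run 6 gave 2 and 7 (24.5%). That fit was added after seeing the data, as was the test of the effect between runs. Leaving out each of the 90 libraries in turn gave 2 to 4 higher and 6 to 7 lower, and no share over all genes is given for these fits. Des, at −0.18 with all animals, was at 2.54 with position and at 0.26 with the clock score. DESeq2 put it at −0.35 and called it lower (DESeq2 adjusted p = 2.61e-05), as did edgeR with coat colour as a covariate. All these fits held both muscle libraries. Without 1 library Des ran from −1.23 to 0.69. Col5a2, at −0.08, was at 0.84 with limma-voom, at 0.79 with the authors' normalized values under either pseudocount, at 0.072 without the 9 libraries of lowest total, at 0.19 with coat colour, at 0.70 with plate row and column and from −0.25 to 0.19 without 1 library. Without the 2 muscle libraries, 0 members differed by run and 0 by coat in the zileuton effect, against 1 and 1 with them. No paired analysis was possible because the labels give no replicate numbers shared between groups. Depth limits the precision of genes of few counts, such as Timp1 with a median of 3 counts per library.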

Other observations

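Genes outside the list whose levels followed a called member most closely across the 90 animals, after removal of group means, were picked after the values were seen and are given as a description. Col6a1 and Col6a2 were followed by Emilin1, a glycoprotein of elastic fibres (r = 0.75 and 0.74), Col6a1 next by Postn (0.72) and Col6a2 by Ccdc80 (0.72). Col5a1 was followed by the member Pdgfrb (0.77) and then by Adamts2, which cuts procollagen at its N-terminal end (0.70). After Col5a1, Pdgfrb was followed by Tnxb, a tenascin (0.66). Ecm1 had Cadm3 (0.65) and Angptl6 (0.64) as its closest genes, neither of them a member. Lhx2 was closest to the members Reln and Hand2 (0.61 and 0.58), then to Gdf2 (0.51), the gene of BMP9. For Dcn, Gdf2 came next after the member Lum (0.48). Col5a2 had no gene above 0.45.

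Zileuton animal 29 had the highest Col1a1, Col6a1 and Postn of all animals (40.1, 48 and 207 CPM), and Col3a1 at 117 CPM, but its Acta2, at 7.64 CPM, was below that of vehicle animals 11 and 10. The next highest sums of Col1a1, Col1a2 and Col3a1 were in vehicle animal 35 (165 CPM) and zileuton animal 28 (122 CPM), after 199 CPM in zileuton animal 29. Timp1 was at 0.663 CPM in zileuton animal 29 and at 0.308 CPM in vehicle animal 35.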
